A study of Mus musculus with 6 samples.

Results

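The interleukin-1 family and its receptors were followed through livers taken 24 hours after CCl4. The 10 members were chosen by gene symbol, and all 10 have a row among the 24346 genes of the deposited table. They are the ligands *Il1a*, *Il1b*, *Il18* and *Il33*, the antagonists *Il1rn* and *Il18bp*, the receptor chains *Il1r1*, *Il1rap* and *Il1rl1*, and the protease gene *Casp1*. Of these, 9 passed the filter on low values that was needed for the test across genes, a mean of at least 0.5 FPKM over all livers, which left 11956 genes. FPKM is a read density, scaled by the length of the transcript and the size of the library. Each of the 9 was above 0.5 FPKM in every liver, so none passed through 1 group alone, and *Il1rl1* stayed below the filter.

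Interleukin-1α and interleukin-1β bind the receptor IL1R1, which then recruits the accessory chain IL1RAP and signals through MYD88, the IRAK kinases and TRAF6 to NF-kB. The receptor antagonist encoded by *Il1rn* occupies IL1R1 without recruiting the accessory chain. Interleukin-18 has its own receptor and is held in check by the secreted binding protein IL18BP, and interleukin-33 is released by damaged cells and acts on ST2, the product of *Il1rl1*. Caspase-1 cuts the precursors of interleukin-1β and interleukin-18 inside inflammasomes. In the liver, Kupffer cells, recruited monocytes and neutrophils are known sources of interleukin-1, and hepatocytes respond to it with acute phase proteins.

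RNA from whole livers was sequenced in 2 groups of 3 numbered samples, taken from male C57/BL6 mice 8 weeks old. The controls were med23 f/f mice, labelled wt, which carry floxed *Med23*. The other group was med23 Δli mice, labelled med23 ko, in which Cre under the *Albumin* promoter deletes *Med23*, a subunit gene of the Mediator coactivator, in hepatocytes while the other liver cells keep it. All animals received 0.6 μl CCl4 per g body weight in sunflower oil by intraperitoneal injection, a toxin that hepatocytes activate and that kills them around the central vein, so no liver without CCl4 was compared. The labels do not say that each numbered liver came from a separate mouse, so the p-values measure the spread between these samples. In whole tissue, fewer cells of a type and less RNA per cell cannot be told apart.

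*Med23* itself stood at 3.42, 2.97 and 4.14 FPKM in controls against 3.40, 3.40 and 2.91 FPKM in med23 Δli livers. Its log2 fold change was −0.11 ± 0.17 (SE; adjusted p = 0.685 from limma with Benjamini-Hochberg adjustment over all genes tested), so the transcript level did not tell the groups apart. *Albumin* stood between 12624 and 22376 FPKM in the 6 livers. A library listed 7628 to 9341 genes at 0. Since FPKM gives no counts, the number of reads behind a value is unknown. The second med23 Δli liver also held adipose transcripts, with a summed level of 40.2 FPKM over 8 fat markers against 0.27 to 0.714 FPKM in the other 5 livers, and each count of members is therefore also given without it.

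The regions in front of the start sites are shown for *Il1rn* and *Il18*, the members whose groups did not overlap in the higher direction, and the 2 start regions of *Il1rn*, which give rise to intracellular and secreted forms of the antagonist, are both given because their windows differ in motifs. Each run is the 250 bases before a RefSeq start on GRCm38.p6, the assembly of mm10, from 5′ to 3′ on the plus strand, with a motif match in capitals. The match in the upstream *Il1rn* window is to the AP-1 motif TGANTCA and lies 141 bases before the start at 24336860. The match in the downstream window is to the NF-kB motif GGNNTTTCC, 50 bases before the start at 24345371. The *Il18* window held no match.
Il1rn upstream start, chr2:24336610-24336859: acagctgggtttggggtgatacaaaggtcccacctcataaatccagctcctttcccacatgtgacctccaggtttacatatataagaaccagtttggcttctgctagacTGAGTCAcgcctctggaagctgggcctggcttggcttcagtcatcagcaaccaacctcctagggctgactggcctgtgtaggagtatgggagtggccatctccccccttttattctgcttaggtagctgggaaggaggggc
Il1rn downstream start, chr2:24345121-24345370: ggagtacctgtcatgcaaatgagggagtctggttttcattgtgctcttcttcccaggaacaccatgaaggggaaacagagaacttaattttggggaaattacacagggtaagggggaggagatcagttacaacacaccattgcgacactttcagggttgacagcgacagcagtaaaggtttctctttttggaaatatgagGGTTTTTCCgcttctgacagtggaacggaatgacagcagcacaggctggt
Il18, chr9:50554450-50554699: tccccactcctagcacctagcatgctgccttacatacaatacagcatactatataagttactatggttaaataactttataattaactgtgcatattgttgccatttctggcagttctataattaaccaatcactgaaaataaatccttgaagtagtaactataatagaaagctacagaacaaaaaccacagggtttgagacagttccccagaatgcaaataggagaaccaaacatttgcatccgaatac

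The family has 15 such windows, since some members have more than 1 start, and 2 of the *Il1rn* windows overlap. The 5 motifs were searched on both strands. The AP-1 motif was in 2 of the 15 windows and in 6.75% of 32817 windows of the same length over all genes, with the other match (TGACTCA) 12 bases before the start of *Il1a*. The NF-kB motif was in 1 of 15 against 4.93% of all windows. The C/EBP motif TTGCNNAA was in 4 of 15 against 9.57%, with matches 133 bases before a start of *Il1r1*, 34 bases before a start of *Il1rl1*, 49 bases before that of *Il18bp* and 85 bases before a start of *Il33*. The PU.1 motif GAGGAAGT and the ROR motif TAGGTCA, present in 2.44% and 2.24% of all windows, were in none of the 15. These are matches of letters and not measured binding.

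The members lie on 6 chromosomes of mm10 (GENCODE M21). *Il1rn* (ENSMUSG00000026981.15), *Il1a* (ENSMUSG00000027399.1, chr2:129299610-129309972, minus strand) and *Il1b* (ENSMUSG00000027398.13, chr2:129364570-129371139, minus strand) share chromosome 2, the last 2 near each other. The receptor genes *Il1r1* (chr1:40225080-40317257) and *Il1rl1* (chr1:40429570-40465415) are both on the plus strand of chromosome 1. *Il18* (chr9:50554827-50581840) and *Casp1* (chr9:5298517-5307265) are on the plus strand of chromosome 9, *Il33* (chr19:29925114-29960718) and *Il1rap* (chr16:26581704-26730117) on the plus strands of chromosomes 19 and 16, and *Il18bp* (chr7:102014885-102018690) on the minus strand of chromosome 7. Other annotated genes overlap 6 of the 10, among them *Numa1* at *Il18bp* (80 shared bases), *Gm38070* at *Il1r1* (6480 shared bases) and *Gm20319* at *Il1rap* (15672 shared bases).

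The study measured *Il1a* and *Il1b* by qRT-PCR as well, and its primers show which parts of the transcripts that assay reads. They are given 5′ to 3′ and were located in GENCODE M21 transcripts on mm10.
Il1a forward, exon 4 of 7, chr2:129306541-129306560: acgtcaagcaacgggaagat
Il1a reverse, exon 5 of 7, chr2:129304820-129304839: aaggtgctgatctgggttgg
Il1b forward, exon 5 of 7, chr2:129367390-129367409: gcccatcctctgtgactcat
Il1b reverse, exon 6 of 7, chr2:129366031-129366050: aggccacaggtattttgtcg
Both pairs lie in coding sequence and span an intron, with products of 124 bases for *Il1a* and 230 bases for *Il1b*. The forward *Il1a* primer also matched transcripts of *Gm14023*, a gene on the opposite strand that shares 8217 bases with *Il1a*. No primer of *Il1b* matched another annotated gene.

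Across the family, 1 of the 9 members tested rose in med23 Δli livers, 0 fell and 8 did not pass the test at an adjusted p under 0.05 (limma, Benjamini-Hochberg adjustment). Over all genes tested, 11.6% were called higher and 9.48% lower, so a count of 1 in 9 is near the background. The member that rose was *Il1rn*, which also passed the stricter rule of more than 2-fold, met by 4.45% of all genes in that direction. At an unadjusted limma p under 0.05, 4 members were higher (*Il1b*, *Il18*, *Il1rn* and *Il1r1*) and 0 lower, beside 20.5% and 17.1% of all genes. Without the second med23 Δli liver 0 members were called in either direction by limma, where 4.07% of all genes were called higher and 3.7% lower. At an unadjusted p under 0.05 that fit had 2 members higher (*Il18* and *Il1rn*) and 0 lower, beside 14.4% and 14.1% of all genes. The 3 livers of one group lay wholly above those of the other for 2 members with med23 Δli higher, *Il1rn* and *Il18*, against 23.3% of all genes, and for 0 with med23 Δli lower, against 20.4%. Leaving out the second med23 Δli liver gave 2 and 1, beside 25.1% and 24.3% of all genes at that group size. The median log2 fold change was 0.11 over the 9 members and 0.02 over all genes tested, and 6 of the 9 differences were positive. Without the second med23 Δli liver the median over the members was 0.09 and 5 of the 9 were positive.

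**Figure D1:**
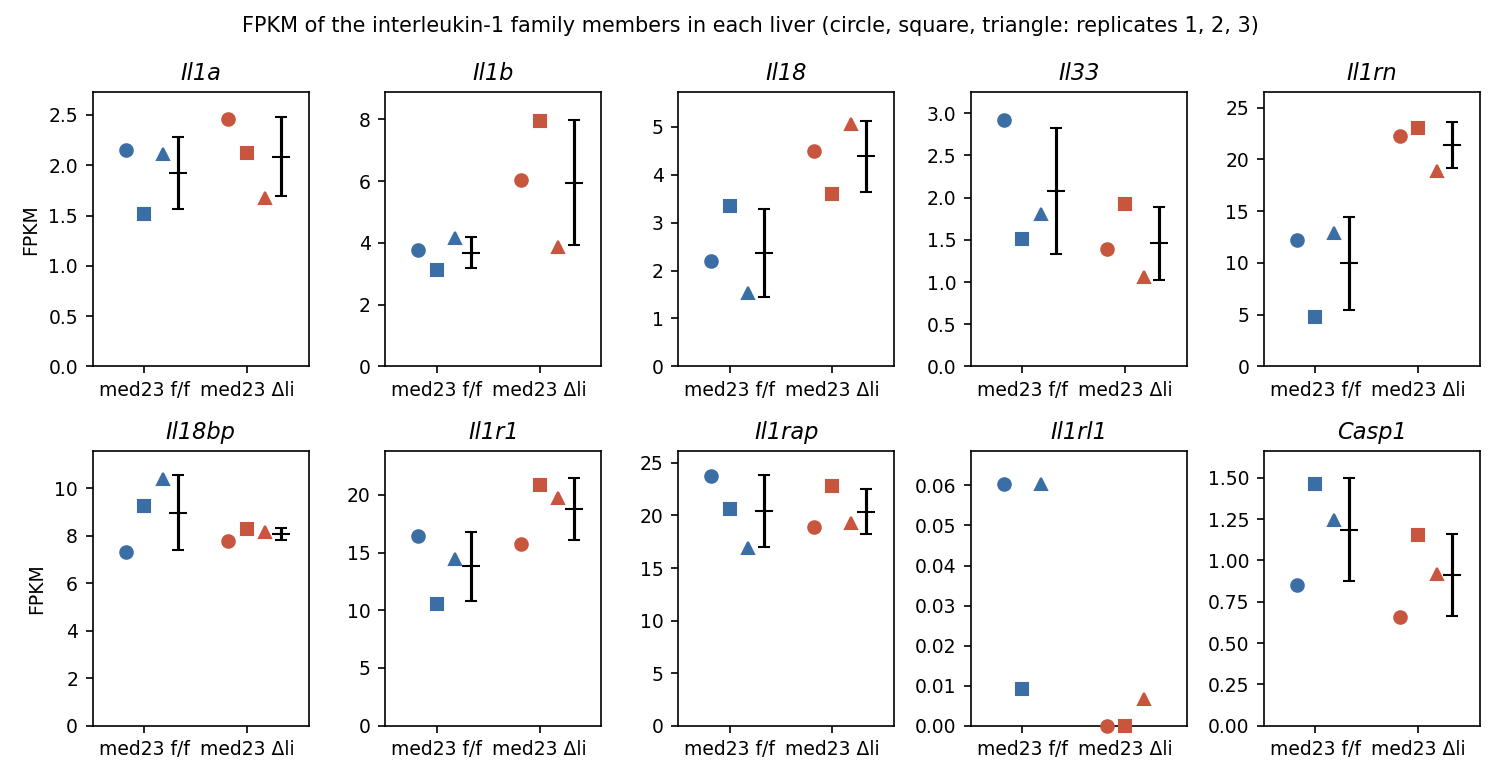
FPKM of each of the 10 members in each liver, med23 f/f in blue and med23 Δli in red, with circle, square and triangle for replicates 1, 2 and 3 and a black bar for the mean ± SD (n = 3), left out for *Il1rl1*, which was listed at 0 in 2 livers. The *Il1rn* points of the med23 Δli group lie between 18.9 and 23.0 FPKM, above the 4.73 to 12.9 FPKM of the controls, whereas the *Il1rap* points overlap.

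Among the ligands, *Il1b*, the main secreted form made by macrophages, had 3.77, 3.13 and 4.15 FPKM in the controls and 6.03, 7.94 and 3.88 FPKM in med23 Δli livers. The first and second med23 Δli livers were above every control, and replicate 3 lay within the control range. The means were 3.69 ± 0.514 and 5.95 ± 2.03 FPKM (SD, n = 3 each), and the log2 fold change of 0.63 ± 0.26 (SE) did not pass (adjusted p = 0.116, limma with Benjamini-Hochberg adjustment). With med23 Δli replicate 3 left out it passed, at 0.90 in log2 (adjusted p = 0.0483, limma), and without replicate 2 it was 0.39 (adjusted p = 0.328, limma). The *Il1b* value therefore depended on which med23 Δli livers were counted. *Il1b* shares 1243 bases with the antisense gene *Il1bos*, and the study's methods name the TruSeq v2 kit, which does not mark strand, so reads from the shared bases cannot be told apart.

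*Il1a*, the form that also stays in the cell and acts when cells die, had 2.15, 1.51 and 2.11 FPKM in the controls and 2.46, 2.12 and 1.68 FPKM in med23 Δli livers. The groups overlapped over most of their range. The log2 fold change was 0.11 ± 0.22 (SE; adjusted p = 0.742, limma), and its sign turned without the second control liver or without the first med23 Δli liver.

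*Il18*, which drives interferon-γ production in lymphocytes, had 2.19, 3.35 and 1.54 FPKM in the controls and 4.50, 3.59 and 5.05 FPKM in med23 Δli livers. All 3 med23 Δli livers were above all controls, though the highest control and the lowest med23 Δli liver lay close together and overlapped after median centring or quantile normalization of the libraries. The means were 2.36 ± 0.918 and 4.38 ± 0.736 FPKM (SD, n = 3 each), a fold change of 1.89 on the log2(FPKM + 0.1) scale and a log2 fold change of 0.92 ± 0.28 (SE). The adjusted p was 0.0505 (limma, Benjamini-Hochberg), just outside the threshold, and the exact two-sided permutation test gave p = 0.1, the smallest that 3 livers against 3 allow. Without the second control liver, the highest of its group, the log2 fold change was 1.20 with an adjusted p of 0.0189 (limma), and with any other liver left out it stayed between 0.66 and 1.05 and did not pass. Part of the *Il18* gene lies opposite *Bco2* (355 shared bases) and *Tex12* (4507 shared bases).

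*Il33*, an alarmin kept in the nucleus of stromal and parenchymal cells, was the ligand with the lowest mean in the med23 Δli group. It had 2.92, 1.51 and 1.81 FPKM in the controls and 1.39, 1.92 and 1.06 FPKM in med23 Δli livers. The highest med23 Δli liver exceeded 2 of the 3 controls. The log2 fold change was −0.47 ± 0.30 (SE) and did not pass (adjusted p = 0.289, limma).

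*Il1rn*, the antagonist of the interleukin-1 receptor, had the largest log2 fold change of the 9 members tested with all livers in. Without the second control liver that of *Il18* was larger (1.20 against 0.76). *Il1rn* had 12.2, 4.73 and 12.9 FPKM in the controls and 22.3, 23.0 and 18.9 FPKM in med23 Δli livers. Every med23 Δli liver was above every control, and the second control liver was well below the other 2. The means were 9.95 ± 4.53 and 21.4 ± 2.21 FPKM (SD, n = 3 each), a fold change of 2.33 on the log2(FPKM + 0.1) scale and a log2 fold change of 1.22 ± 0.35 (SE). The adjusted p was 0.0446 (limma, Benjamini-Hochberg), and the exact two-sided permutation test gave its smallest value, p = 0.1.

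The call of *Il1rn* lay close to the threshold. The log2 fold change stayed positive with each library left out, from 0.76 without the second control liver (adjusted p = 0.0188, limma) to 1.47 without control replicate 3 (adjusted p = 0.024, limma). It no longer passed without the first control liver (adjusted p = 0.0529), or without med23 Δli replicate 1, 2 or 3 (adjusted p = 0.121, 0.121 and 0.0998, all limma). It also did not pass with no filter (adjusted p = 0.0855), with eBayes without trend (0.0600), with robust eBayes (0.0558) or with the replicate number as a block (0.0598, all limma). It passed with the other pseudocounts, a filter at 1 FPKM, median centring and quantile normalization. FPKM is given per gene, so transcripts from the 2 start regions, whose windows are printed above, were not separated. No other annotated gene overlaps *Il1rn*, which spans chr2:24336853-24351494 on the plus strand.

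*Il18bp*, the secreted decoy for interleukin-18, had 7.31, 9.24 and 10.4 FPKM in the controls and 7.81, 8.28 and 8.16 FPKM in med23 Δli livers. All med23 Δli values lay within the control range. The means were 8.99 ± 1.57 and 8.08 ± 0.248 FPKM (SD, n = 3 each), and the log2 fold change was −0.14 ± 0.16 (SE; adjusted p = 0.555, limma).

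**Figure D2:**
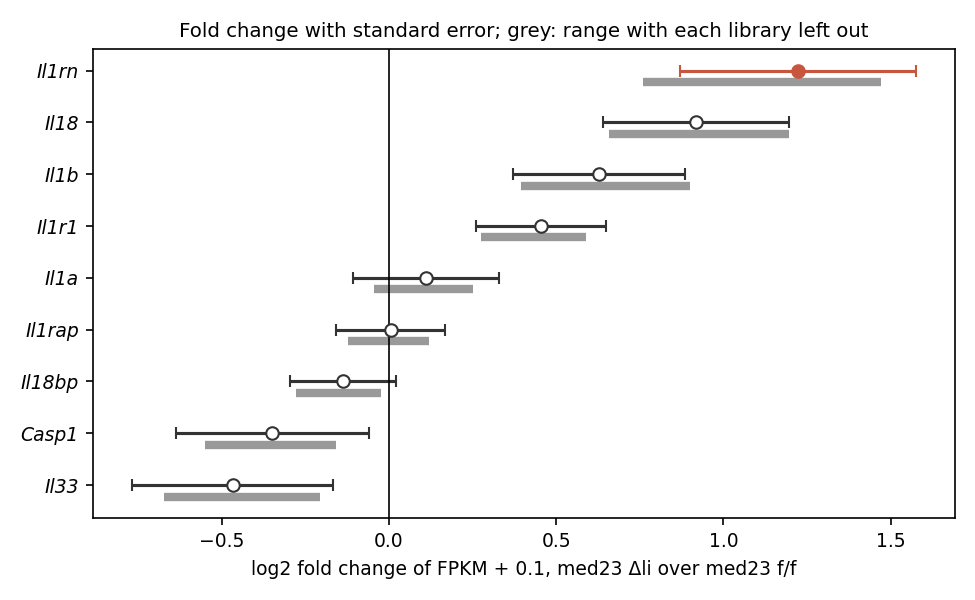
Log2 fold change of FPKM + 0.1, med23 Δli over med23 f/f, for the 9 members tested, with black or red bars for the standard error, a filled red point for an adjusted p under 0.05 (limma) and a grey bar for the range with each library left out in turn. *Il1rn* at 1.22 is the only filled point, and the grey bars of *Il1a* and *Il1rap* cross 0.

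Neither of the receptor chains tested was called. *Il1r1*, the signalling receptor for both interleukin-1 forms, had 16.4, 10.6 and 14.4 FPKM in the controls and 15.8, 20.9 and 19.7 FPKM in med23 Δli livers. The med23 Δli replicates 2 and 3 were above all controls and the first was not. The means were 13.8 ± 2.97 and 18.8 ± 2.69 FPKM (SD, n = 3 each). The log2 fold change was 0.45 ± 0.19 (SE) and did not pass after adjustment (limma, unadjusted p = 0.0481, adjusted p = 0.13). *Il1rap*, the accessory chain that the receptors for interleukin-1 and interleukin-33 share, had 23.7, 20.6 and 16.9 FPKM in the controls and 18.9, 22.8 and 19.3 FPKM in med23 Δli livers. Its means were 20.4 FPKM in each group, and the log2 fold change was 0.01 with an SE of 0.16 (adjusted p = 0.985, limma).

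*Il1rl1*, whose product ST2 receives interleukin-33, was near the floor of the measurement. It was listed at 0.0604, 0.00924 and 0.0604 FPKM in the controls, at 0 in the first and second med23 Δli livers and at 0.00674 FPKM in replicate 3. All controls were above all med23 Δli livers, but at this level the gene was under the filter and no fold was computed. Markers of T cells, NK cells and ST2-positive lymphoid or mast cells summed to 0.349 to 1.25 FPKM over 8 genes in the controls and 0.727 to 1.32 FPKM in med23 Δli livers, with *Cpa3* and *Fcer1a* at 0 in every liver. *Casp1*, the protease, had 0.852, 1.46 and 1.24 FPKM in the controls and 0.66, 1.16 and 0.917 FPKM in med23 Δli livers. These overlapped, with a log2 fold change of −0.35 and a standard error of 0.29 (adjusted p = 0.408, limma).

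FPKM is scaled by transcript length, so levels can be set side by side between members. In the controls the order of the mean levels was *Il1rap* (20.4 FPKM), *Il1r1* (13.8 FPKM), *Il1rn* (9.95 FPKM), *Il18bp* (8.99 FPKM), *Il1b* (3.69 FPKM), *Il18* (2.36 FPKM), *Il33* (2.08 FPKM), *Il1a* (1.93 FPKM) and *Casp1* (1.19 FPKM), with *Il1rl1* last. Neighbours in that order whose ranges did not overlap were *Il1rap* and *Il1r1*, *Il18bp* and *Il1b*, *Il1a* and *Casp1*, and *Casp1* and *Il1rl1*. The antagonists and the receptor chains other than *Il1rl1* thus had higher mean levels than the ligands. In the med23 Δli livers *Il1rn* had the highest mean (21.4 FPKM), but its range overlapped that of *Il1rap* (20.4 FPKM), which in turn overlapped that of *Il1r1* (18.8 FPKM). Below them came *Il18bp* (8.08 FPKM), *Il1b* (5.95 FPKM), *Il18* (4.38 FPKM), *Il1a* (2.09 FPKM), *Il33* (1.46 FPKM) and *Casp1* (0.911 FPKM). There the ranges of neighbours did not overlap only between *Il1r1* and *Il18bp*, *Il18* and *Il1a*, and *Casp1* and *Il1rl1*.

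The balance of antagonist and ligand within a liver does not depend on how libraries are scaled to each other, and 3 such ratios were compared. The ratio of *Il1rn* to *Il1a* was 5.69, 3.12 and 6.09 in the controls and 9.07, 10.8 and 11.2 in med23 Δli livers, with means of 4.97 ± 1.61 and 10.4 ± 1.15 (SD, n = 3 each). All med23 Δli ratios were above all control ratios, a difference of 1.12 in log2, with an exact two-sided permutation p of 0.1, or 0.15 after Benjamini-Hochberg adjustment over the 3 ratios. The ratio of *Il1rn* to *Il1b* was 3.24, 1.51 and 3.11 in the controls and 3.70, 2.89 and 4.86 in med23 Δli livers. These overlapped, with a log2 difference of 0.59 and an exact permutation p of 0.3 before and after adjustment. The ratio of *Il18bp* to *Il18* went the other way, with 3.33, 2.76 and 6.78 in the controls and 1.74, 2.31 and 1.62 in med23 Δli livers, means of 4.29 ± 2.17 and 1.89 ± 0.369 (SD, n = 3 each). All med23 Δli ratios were below all control ratios, a log2 difference of −1.09 (exact permutation p = 0.1, adjusted 0.15). With 3 livers in each group no ratio could reach a p under 0.1.

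**Figure D3:**
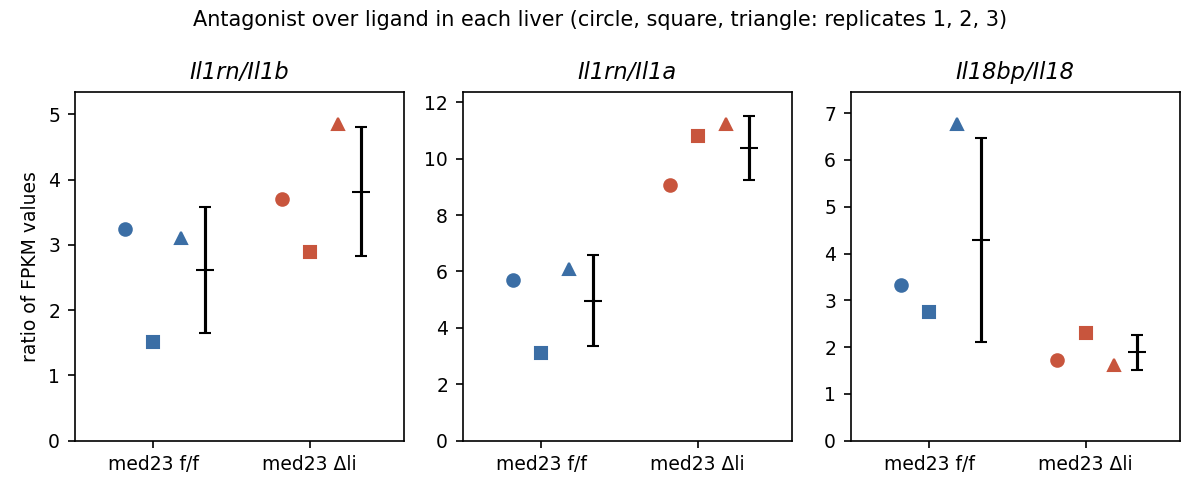
Ratio of the FPKM of an antagonist to that of its ligand in each liver, med23 f/f in blue and med23 Δli in red, with circle, square and triangle for replicates 1, 2 and 3 and black bars for the mean ± SD (n = 3). The *Il1rn* to *Il1a* ratios lie between 9.07 and 11.2 in med23 Δli livers against 3.12 to 6.09 in controls, and the *Il18bp* to *Il18* ratios lie below those of the controls.

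The lowest and the highest liver of each group were counted over the 9 members. In a group of 3 livers some liver must be lowest and another highest for each member. How often each liver was lowest or highest over all genes was not counted, so a shift of a whole library was not tested. The second control liver was the lowest of its group for 5 of the 9 members (*Il1a*, *Il1b*, *Il33*, *Il1rn* and *Il1r1*) and the highest for *Il18* and *Casp1*. The second med23 Δli liver, the one with adipose transcripts, was the highest of its group for 7 of the 9 members, all except *Il1a* and *Il18*. The part of the adipose tissue in these values was not tested. Replicate 3 of the med23 Δli group was the lowest of its group for *Il1a*, *Il1b*, *Il33* and *Il1rn*, and the highest for *Il18*. The first med23 Δli liver was the lowest for *Il18bp*, *Il1r1*, *Il1rap* and *Casp1*, and the first control liver was the highest of its group for *Il1a*, *Il33*, *Il1r1* and *Il1rap*.

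The other genes of the pathway were counted in 5 lists of 58 genes. Of these, 41 were tested, 3 rose, 3 fell and 35 did not pass (limma, adjusted p under 0.05), beside 11.6% higher and 9.48% lower over all genes. Without the second med23 Δli liver 0 rose and 2 fell, beside the 4.07% and 3.7% of all genes in that fit. The median log2 fold change was 0.20 over the 41 genes with all livers in. Of the 5 other ligands and antagonists, 4 (*Il1f5*, *Il1f6*, *Il1f8* and *Il1f10*) were listed at 0 in every liver, and *Il1f9*, which codes for interleukin-36γ, had 0.553, 0.216 and 1.01 FPKM in the controls and 0.999, 1.16 and 0.843 FPKM in med23 Δli livers (log2 fold change 0.84, adjusted p = 0.205, limma). Of the 7 other receptors 2 were at 0 in every liver and 2 were tested, and neither passed. These were *Sigirr*, an inhibitory receptor, with a log2 fold change of −0.31 (limma, adjusted p = 0.2), and *Il1r2*, a decoy receptor for interleukin-1, with −0.25 (adjusted p = 0.59, limma).

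All 17 genes of receptor signalling were tested, and 2 rose, 2 fell and 13 did not pass, with a median log2 fold change of 0.22. Over all genes 11.6% were called higher and 9.48% lower. At an unadjusted limma p under 0.05, 5 of the list were higher and 3 lower, beside 20.5% and 17.1% of all genes. Without the second med23 Δli liver 0 were called higher and 1 lower, beside 4.07% and 3.7% of all genes. *Irak1*, a kinase recruited by MYD88, rose from 25.9, 19.9 and 26.9 FPKM in the controls to 43.2, 46.7 and 38.8 FPKM in med23 Δli livers (log2 fold change 0.83 ± 0.16 SE, limma adjusted p = 0.0122). It did not pass without the first or without the second med23 Δli liver (adjusted p = 0.0564 and 0.0556, limma). *Irak2*, the related kinase that sustains the signal, fell from 14.4, 21.2 and 16.9 FPKM to 11.02, 11.6 and 9.03 FPKM (log2 fold change −0.71, limma adjusted p = 0.0284), so the 2 kinases changed in opposite directions. The *Irak2* call was lost without the second control liver and without each med23 Δli liver, with adjusted p from 0.0559 to 0.0986 (limma).

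The 2 other genes called in this list bind the kinase TAK1. *Tab1* fell from 4.45, 5.91 and 3.32 FPKM to 1.35, 1.44 and 2.10 FPKM (log2 fold change −1.42, limma adjusted p = 0.0106), and passed with each of the 6 libraries left out. *Tab2* rose from 20.4, 13.5 and 18.0 FPKM to 23.7, 27.8 and 25.7 FPKM (log2 fold change 0.59, limma adjusted p = 0.0471), and still passed without the first control liver but not when any of the other 5 libraries was left out (adjusted p from 0.0512 to 0.153, limma). The groups did not overlap for any of these 4 genes, which adds little, since they were picked by their call. In the whole list 5 genes were higher and 3 lower without overlap, beside 23.3% and 20.4% of all genes. *Rela*, a subunit of NF-kB, had a log2 fold change of 0.06 (limma, adjusted p = 0.765), and *Tollip*, an adaptor that restrains IRAK1, had 0.22 (adjusted p = 0.404, limma).

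**Figure D4:**
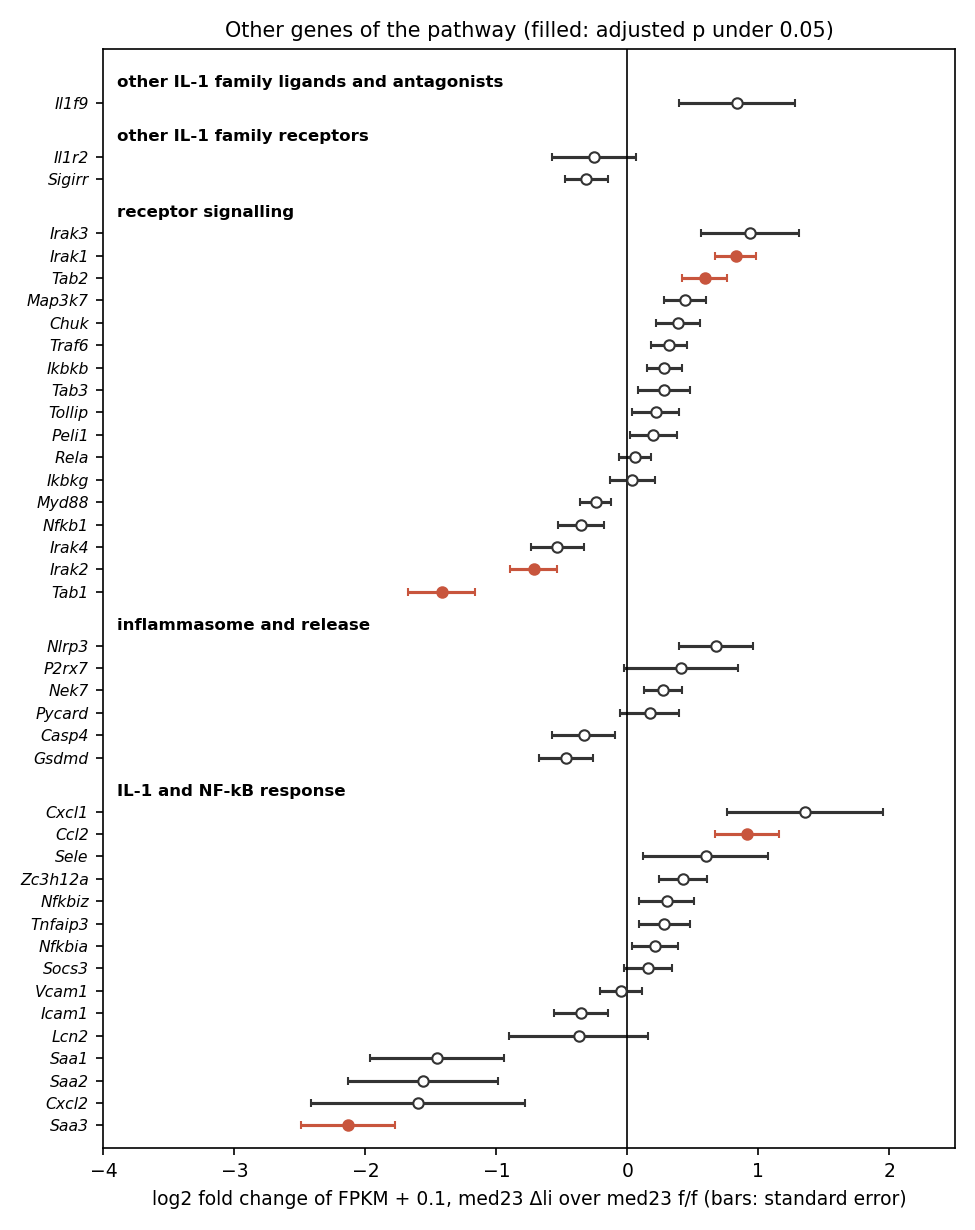
Log2 fold change of FPKM + 0.1, med23 Δli over med23 f/f, for the 41 tested genes of the 5 pathway lists, with bars for the standard error and filled red points for an adjusted p under 0.05 (limma). The 6 filled points are *Irak1*, *Tab2* and *Ccl2* to the right of 0 and *Irak2*, *Tab1* and *Saa3* to the left.

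Among 11 inflammasome and release genes 6 were tested and 0 passed by limma, with a median log2 fold change of 0.22. At an unadjusted p under 0.05, 1 was higher and 0 lower, beside 20.5% and 17.1% of all genes, and without the second med23 Δli liver 0 were higher and 0 lower. The most abundant were *Nek7*, which licenses NLRP3, with 0.27 (adjusted p = 0.215, limma), and *Gsdmd*, the pore through which interleukin-1β leaves the cell, with −0.47 (adjusted p = 0.14, limma). *Casp1*, which works at the same step, gave no call either.

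Of 18 genes that interleukin-1 and NF-kB are known to induce, 15 were tested, 1 rose, 1 fell and 13 did not pass, with a median log2 fold change of 0.16. Over all genes 11.6% were called higher and 9.48% lower. Without the second med23 Δli liver 0 were called higher and 1 lower by limma, beside 4.07% and 3.7% of all genes. *Ccl2*, the chemokine that draws monocytes, rose from 13.9, 11.4 and 15.2 FPKM to 33.5, 27.8 and 17.3 FPKM (log2 fold change 0.91, limma adjusted p = 0.0358). It did not pass without the first or second control liver or without the first or second med23 Δli liver (adjusted p from 0.0762 to 0.119, limma). With no filter *Ccl2* did not pass either (adjusted p = 0.0669, limma). *Saa3*, an acute phase apolipoprotein also made by macrophages, fell from 333, 687 and 354 FPKM to 61.2, 121 and 129 FPKM (log2 fold change −2.14, limma adjusted p = 0.00847), and passed with each library left out. The hepatocyte genes *Saa1* and *Saa2* had log2 fold changes of −1.45 (adjusted p = 0.0773, limma) and −1.56 (adjusted p = 0.0874, limma). They did not pass, their groups did not overlap, and they are near-identical copies between which reads could have been split. With single libraries left out the log2 fold change ranged from −1.88 to −0.86 for *Saa1* and from −2.05 to −0.88 for *Saa2*. The list thus held 1 call in each direction, a chemokine and an acute phase gene, which is not above the share over all genes.

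Markers of the cells that make or receive these cytokines were summed in each liver. Kupffer cell markers (6 genes) summed to 118, 186 and 139 FPKM in the controls and 134, 124 and 132 FPKM in med23 Δli livers, and monocyte and macrophage markers (7 genes) to 215, 226 and 279 FPKM and 256, 260 and 234 FPKM. None of these genes passed in either direction by limma. At an unadjusted p under 0.05, 2 Kupffer cell markers were lower and 1 monocyte marker was higher, beside 17.1% of all genes lower and 20.5% higher. Without the second med23 Δli liver these counts were 0 and 1, beside 14.1% and 14.4%. The sums of the groups overlapped for both lists, although *Clec4f*, a Kupffer cell marker, was lower without overlap, beside 20.4% of all genes. Neutrophil markers summed to 43.6, 90.5 and 137 FPKM in the controls and 41.1, 100.4 and 67.5 FPKM in med23 Δli livers. Of these, 5 were tested and 0 passed by limma, although all 5 differences were negative (median log2 fold change −0.60). At an unadjusted p under 0.05, 3 were lower, beside 17.1% of all genes, and also 3 without the second med23 Δli liver, beside 14.1%. *S100a8* and *S100a9* made up most of each neutrophil sum, and *Csf3r* and *Cxcr2* were lower without overlap. The part of these cells in the values of *Il1rn*, *Il1b* and *Il18* was not tested.

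Endothelial and stellate cells, which carry *Il1r1* and *Il33* in the liver, had markers that passed the test. All 6 endothelial markers fell, with log2 fold changes from −0.75 to −1.27 (limma, adjusted p under 0.05 for each), beside 9.48% of all genes called lower. Their sum was 81.4, 119 and 105 FPKM in the controls and 46.9, 45.6 and 43.7 FPKM in med23 Δli livers. *Lyve1* and *Cdh5* each passed in 3 of the 6 fits with 1 library left out (adjusted p up to 0.0915 and 0.0554, limma). Without the second med23 Δli liver 5 of the 6 markers passed, beside 3.7% of all genes called lower in that fit. Of 6 stellate cell markers tested, *Des* and *Colec11* fell and 4 did not pass, beside 9.48% of all genes called lower, with sums of 93.6, 87.7 and 107 FPKM and 73.4, 84.5 and 67.1 FPKM. At an unadjusted p under 0.05, 3 were lower and 1, *Reln*, was higher (log2 fold change 0.47), beside 17.1% and 20.5% of all genes, and without the second med23 Δli liver 3 were lower and 0 higher. The *Des* call held in 1 of the 6 fits with a library left out, the one without control replicate 3 (adjusted p up to 0.145, limma), and the *Colec11* call in 5 of 6, so that 1 of the 6 passed without the second med23 Δli liver. Of 6 hepatocyte markers tested, *Serpina1a* fell and 5 did not pass, beside 9.48% of all genes called lower. That call held in 2 of the 6 fits with a library left out and was lost with no filter (adjusted p = 0.072, limma). At an unadjusted p under 0.05, 2 hepatocyte markers were lower (*Apoa1* and *Serpina1a*) and 0 higher, with a median log2 fold change of −0.42. For biliary markers 0 of 5 were called by limma, with 0 at an unadjusted p under 0.05 as well. The part of these cell types in the values of *Il33*, *Il1r1* and the other members was not tested.

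**Figure D5:**
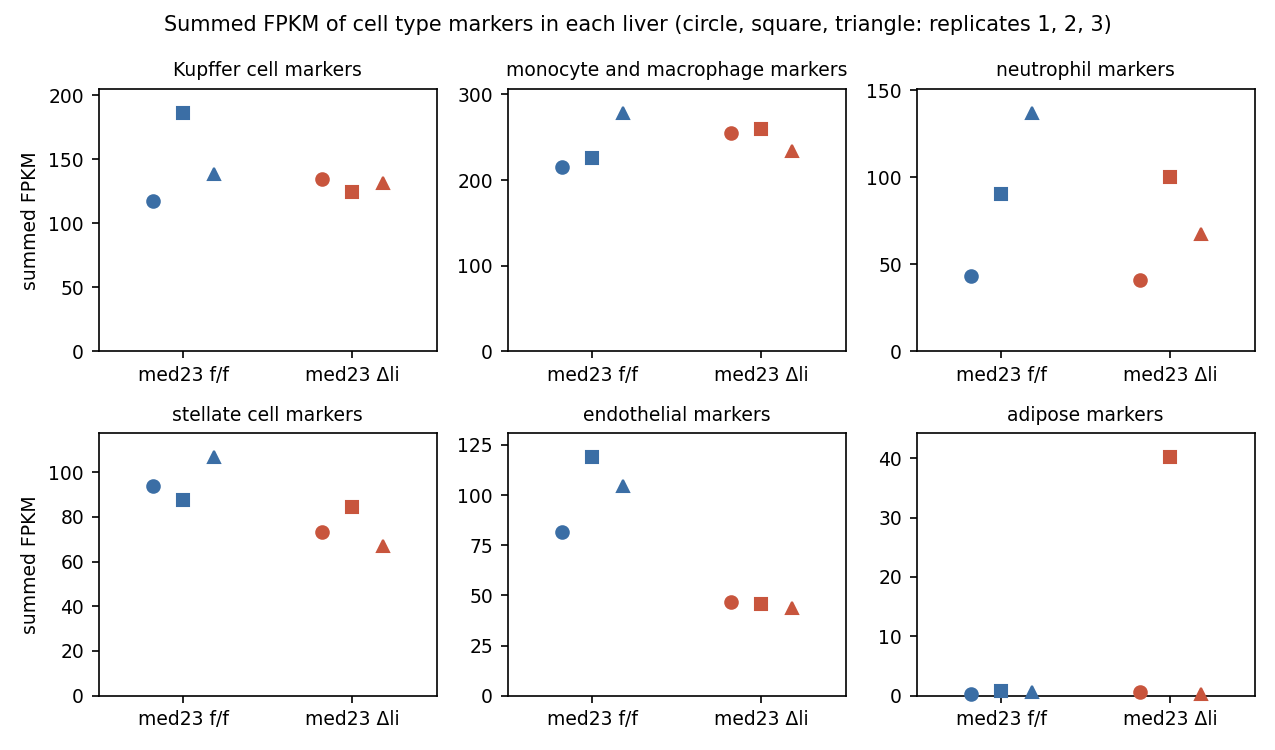
Summed FPKM of the markers of 6 cell types in each liver, med23 f/f in blue and med23 Δli in red, with circle, square and triangle for replicates 1, 2 and 3. Endothelial sums separate the groups (81.4 to 119 FPKM against 43.7 to 46.9 FPKM), and so do stellate sums (87.7 to 107 FPKM against 67.1 to 84.5 FPKM). Kupffer, monocyte and neutrophil sums overlap, and the adipose sum stands at 40.2 FPKM in the second med23 Δli liver only.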

How the data were processed

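Whole-liver RNA-seq values of 6 samples, 3 med23 f/f and 3 med23 Δli, were used. Per the labels and the study's methods, the authors checked reads with FastQC, aligned them to mm10 with TopHat and ran Cuffdiff. Libraries were made with the TruSeq v2 kit, which does not mark strand. Versions, annotation and Cuffdiff options are not given in the sources used here. The table that the authors deposited gives FPKM for each library, the unit used, and also their fold changes, p-values and q-values, which were not used. Low FPKM values showed no step shared by all libraries, so whole reads could not be recovered, depth is unknown and error is the spread between livers.

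Genes averaging 0.5 FPKM or more were compared as log2(FPKM + 0.1) with limma 3.58.1 in R 4.3.3 (lmFit, eBayes with trend), with Benjamini-Hochberg adjustment over 11956 genes and a threshold of 0.05. This scale shrinks the fold changes of genes with low values. Single members and ratios had an exact two-sided permutation test, whose smallest p is 0.1. The fit was checked on simulated data. No library's values were identical to another's. Alternative settings were a pseudocount of 1 or 0.01, no filter or a filter at 1 FPKM, median centring, quantile normalization, eBayes without trend or robust, the replicate number as a block and each library left out.

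All members were named, and from the pathway lists each called gene and up to 2 others of highest mean per list. Of the markers, *Ly6g* and *Tf* were not found under these names. The members and lists were chosen with earlier results of these data known. Positions and overlaps come from GENCODE M21 and windows from RefSeq (GRCm38.p6). Permutation tests used scipy 1.17.1 with numpy 2.4.6 under Python 3.11.15. Tables were handled with pandas 2.3.3 and drawn with matplotlib 3.10.9.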

Additional observations from a re-analysis of the deposited data

How the results depend on the processing

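With 3 livers in each group, a count of called members near 1 can turn on 1 liver, and FPKM without counts does not show how much of the spread at low values comes from counting. Of 242 recomputed values, 201 kept their direction and their side of the threshold, or moved by less than the spread or, for counts, by no more than 1.5 times. Part of these could not move, since the filter and eBayes settings leave a fold change as it was, and the replicate block leaves a ratio as it was. The call of *Il1rn* was lost in 4 of the 6 fits with a library left out and in 4 of the 9 other settings. The count of members called higher, 1 with the settings of the report, was 2 with a pseudocount of 1 and with a filter at 1 FPKM (*Il18* added). In those fits 11.9% and 12.4% of all genes were called higher. The count was 0 with no filter and with eBayes without trend, where 5.9% and 10.3% of all genes were called higher. Under robust eBayes it was again 1, but the gene was *Il18* (adjusted p = 0.0456, limma) and not *Il1rn* (0.0558). With single libraries left out it ranged from 0 to 2, while 3.35% to 14.6% of all genes were called higher. The count of members called lower was 0 under all alternatives. The pathway genes called with single libraries left out ranged from 0 to 5 higher and from 2 to 5 lower, against 3 and 3. In those fits 2.92% to 11.9% of all genes were called lower. With no filter 1 pathway gene was called higher, beside the 5.9% of all genes in that fit. Members with groups that did not overlap numbered 1 higher, against 2, after median centring and after quantile normalization, beside 22.6% and 21.7% of all genes. With no filter, where *Il1rl1* enters, 1 was lower, against 0, beside 16.1% of all genes. With single libraries left out these counts ranged from 2 to 3 higher and from 0 to 2 lower, while the share of all genes was 25.1% to 30.2% higher and 23.2% to 28.1% lower. The log2 fold change of *Il1a* turned to −0.0454 without the second control liver and to −0.0110 without the first med23 Δli liver, within a range of −0.0454 to 0.25 with single libraries left out. That of *Il1rap* turned to −0.0235 after median centring, −0.0319 after quantile normalization, −0.12 without control replicate 3 and −0.0794 without the second med23 Δli liver, within a range of −0.12 to 0.12. The 3 log2 ratios kept their sign with each library left out, from 0.24 to 0.79 for *Il1rn* to *Il1b*, 0.81 to 1.29 for *Il1rn* to *Il1a* and −1.35 to −0.70 for *Il18bp* to *Il18*. Over all genes, the 1384 called higher and 1133 lower became 401 and 349, 487 and 442, and 578 and 412 without med23 Δli replicate 1, 2 and 3. Without the second control liver 749 were called lower, and the 532 called higher by more than 2-fold became 319 without med23 Δli replicate 1.

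Same-numbered livers deviated from their group means with correlations of −0.0222, −0.0459 and −0.124, against −0.0887 to 0.115 for livers of unlike number. With 3 livers in each group this check cannot settle whether the samples were paired. With the replicate block, 0 members were called higher (*Il1rn* at an adjusted p of 0.0598, limma), and 1 pathway gene was called higher and 5 lower. Of all genes, 809 (6.77%) were called higher and 614 (5.14%) lower.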
